A study of Anser anser with 16 samples.

Results

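The interferon system is the transcriptional alarm that vertebrate cells raise against viruses. Followed here in the goose pituitary and hypothalamus were 37 genes of interferon and innate immune sensing families, some of them better known for other roles. They were chosen by a rule on gene names, set with earlier results of these data known. From the authors' comparison table it took names of the IRF, IFI, IFN, OAS, MX, PARP, STAT, TLR and TRAF families. It also took MYD88, DHX58, EIF2AK2, CMPK2, DDX60 and ZNFX1. These 37 genes stood among 19448 genes with counts, of which 12486 were in the authors' comparison table and 9810 of those carried a name. RSAD2 and USP18 were not analysed here. All 37 are annotated as protein-coding and all 37 had enough reads to be tested in every comparison.

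RNA sequencing covered both tissues of 8 male geese (Anser anser) of the W33 strain of White Kołuda geese at day 108. Birds 33, 37, 38 and 40 were labelled with a low growth rate and birds 49, 50, 52 and 54 with a high one and, by their numbers, the same birds gave both tissues. This makes 4 groups of 4 libraries, pituitary low, pituitary high, hypothalamus low and hypothalamus high, each library from 1 bird. The labels describe rearing in pens with later free range and oat fattening, name no treatment, and do not say by which measure a bird was put in the low or high group. The labels state RIN values over 7 and TruSeq v2 libraries, a kit that does not keep strand, so reads of a gene and of a gene on the opposite strand at the same place cannot be told apart.

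In outline, and as known mainly from mammals, viral RNA is recognised by Toll-like receptors in endosomes and by helicases in the cytoplasm. Adaptor proteins such as MYD88 and the TRAF ubiquitin ligases pass the signal to interferon regulatory factors (IRFs), which switch on the interferon genes. Secreted interferon binds its receptors on the same and on neighbouring cells, and the STAT proteins behind those receptors then raise a large group of interferon-stimulated genes. MX and OAS-like proteins, the kinase EIF2AK2 and several PARP enzymes, which attach ADP-ribose to proteins, are among the products. In brain tissue microglia and other resident cells use the same machinery, and several sensors and IRFs are themselves interferon-stimulated.

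Library totals were 11175363 to 14456667 counts in pituitary low, 8543585 to 13464132 in pituitary high, 9186728 to 11346496 in hypothalamus low and 11121872 to 18068056 in hypothalamus high. The tissue labels were checked against markers: 6 of 6 measured pituitary endocrine genes passed as higher in the pituitary and 6 of 6 measured neuronal and glial genes as higher in the hypothalamus. Pituitary libraries of birds 50 and 38 held summed skeletal muscle markers of 929 and 206 CPM (read counts on 1 common scale over all 16 libraries) against 28.3 to 106 CPM in the other 6. Their red blood cell markers summed to 108 and 173 CPM against 27.8 to 69.2 CPM, so some results are also given without these birds.

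The members lie on 32 scaffolds of the authors' annotation. Only IFI30 and PARP9 overlap another gene of the authors' comparison table, IFI30 over 1306 bases with MPV17L2 and PARP9 over 338 bases with DTX3L. Genes with counts outside that comparison were not checked for overlap. IFNAR1 (bases 4172085 to 4194877) and MX2 (345178 to 362095) share scaffold KZ155898.1, and TLR3 (785474 to 792828) and IRF2 (1450046 to 1488410) share scaffold KZ155946.1. By the SD of log2 CPM over birds the 5 most variable members in either tissue were MX2, OASL (ENSACDG00005000043, scaffold KZ155844.1, 13418376 to 13421065), DDX60 (ENSACDG00005012044, scaffold KZ155928.1, 3399062 to 3449648), DHX58 (ENSACDG00005008326, scaffold KZ156150.1, 29012 to 33051) and CMPK2 (ENSACDG00005014749, scaffold KZ155948.1, 2939094 to 2950950). Which assembly these coordinates refer to is not stated by the labels or headers.

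The pituitary carried more RNA than the hypothalamus for 7 members, among them MX2, MYD88, DDX60, OASL and STAT3, and less for the adaptors TRAF4 and TRAF3. Differences are log2 values of pituitary minus hypothalamus over all 16 libraries, called at an edgeR adjusted p under 0.05 together with a 2-fold minimum. Called members were thus 9 of 37, where 34.4% of all 14394 genes tested were called, 14.9% as higher in the pituitary and 19.5% as higher in the hypothalamus. By adjusted p alone, 20 members were higher in the pituitary against 40.1% of all genes, and 4 were higher in the hypothalamus against 36.2%. The median difference was 0.57 over the members and 0.06 over all genes. Of the members 18 were higher in the pituitary in 8 of 8 birds. The share of all genes that were so was not computed, so this count has nothing to be set against. In whole tissue, fewer cells of a type and less RNA per cell cannot be told apart.

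Among the sensors, DDX60, a helicase that assists RNA recognition, ranged over 8.46 to 99.3 CPM in the 8 pituitary libraries (median 23.6) and over 4.91 to 27.8 CPM in the hypothalamus (median 11.9). It was higher in the pituitary in 8 of 8 birds, although the ranges overlap, with a log2 difference of 1.55 ± 0.47 (SE, edgeR adjusted p = 0.00685). Without birds 38 and 50 the difference was 1.00 and no longer passed (edgeR adjusted p = 0.0644). IFIH1, the cytoplasmic sensor of long viral RNA also called MDA5, differed by 0.73 ± 0.17 and ZNFX1, an RNA helicase of the outer mitochondrial membrane, by 0.68 ± 0.24. Both passed the adjusted p, at 0.00122 and 0.0166 in edgeR, but stayed below a fold of 2. DHX58, the regulatory helicase LGP2, differed by 0.86 ± 0.38 (edgeR adjusted p = 0.0528), and with the bird as a block by 0.81 ± 0.12 (edgeR adjusted p = 8.85e-05). TLR3, the endosomal receptor for viral RNA duplexes, differed by -0.17 ± 0.31 and did not pass (edgeR adjusted p = 0.630).

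The adaptors split. MYD88, which links most Toll-like and interleukin-1 receptors to their kinases, was 10.4 to 19.5 CPM in the pituitary (median 14.3) and 1.63 to 5.43 CPM in the hypothalamus (median 4.50). The ranges do not overlap and the log2 difference was 1.83 ± 0.19 (edgeR adjusted p = 2.38e-07). TRAF3, an adaptor of interferon induction, went the other way, at 5.74 to 9.07 CPM in the pituitary (median 6.98) and 23.2 to 36.3 CPM in the hypothalamus (median 25.8). TRAF4, best known from development, including that of the nervous system, was 2.99 to 6.50 CPM in the pituitary (median 4.52) and 17.6 to 23.9 CPM in the hypothalamus (median 20.1). Both were lower in the pituitary in 8 of 8 birds, TRAF3 by -1.93 ± 0.12 (edgeR adjusted p = 4.28e-10) and TRAF4 by -2.21 ± 0.15 (edgeR adjusted p = 1.73e-09). TRAF5 (0.98 ± 0.12), TRAF6 (0.57 ± 0.09) and TRAF7 (0.32 ± 0.07) passed the edgeR adjusted p as higher in the pituitary at less than 2-fold. TRAF1 (-0.09 ± 0.07) and TRAF2 (0.001 ± 0.067), adaptors of tumour necrosis factor receptors, did not pass.

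Among the 5 IRFs, IRF7, the main switch for type I interferon genes, differed by 0.84 ± 0.28, IRF1, an activator raised by interferon gamma, by 0.82 ± 0.31, and IRF2, its counterpart, by 0.76 ± 0.08. All 3 passed the edgeR adjusted p (0.0133, 0.0259 and 4.72e-07) and were higher in the pituitary in 8 of 8 birds. IRF8, a factor of microglia and other myeloid cells, differed by -0.09 ± 0.31 and did not pass (edgeR adjusted p = 0.794).

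Among receptors and their STATs, STAT3, which serves interleukin-6 type cytokines and leptin, differed by 1.02 ± 0.10 (edgeR adjusted p = 1.42e-07), with a pituitary range of 252 to 372 CPM above the hypothalamic range of 121 to 177 CPM. Its fold lies at the threshold and fell below 2 in several alternatives. The interferon receptor chain IFNAR1 was lower in the pituitary in 8 of 8 birds, by -0.51 ± 0.13 (edgeR adjusted p = 0.00256). IFNGR1, a chain of the interferon gamma receptor, differed by 0.03 ± 0.12 and STAT6, which serves interleukin-4, by 0.02 ± 0.09, and neither passed.

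Effectors gave the widest ranges. MX2, a dynamin-like antiviral GTPase, was 8.33 to 183 CPM in the pituitary (median 53.9) and 2.25 to 14.6 CPM in the hypothalamus (median 6.19). It was higher in the pituitary in 8 of 8 birds, by 2.88 ± 0.54 (edgeR adjusted p = 0.00014). OASL, an antiviral protein related to the oligoadenylate synthetases, was 16.9 to 666 CPM in the pituitary (median 218) and 17.8 to 220.1 CPM in the hypothalamus (median 57.3). The ranges overlap, 7 of 8 birds were higher in the pituitary, and the difference of 1.46 ± 0.62 passed narrowly (edgeR adjusted p = 0.0425). That call was lost on leaving out any of birds 33, 38, 40, 49 and 52, at edgeR adjusted p = 0.0817, 0.0785, 0.0662, 0.108 and 0.0779. With the bird as a block, which takes out the differences between birds, OASL differed by 1.39 ± 0.18 (edgeR adjusted p = 3.81e-05).

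The remaining effectors differed less. IFITM10, of the interferon-induced transmembrane family, was lower in the pituitary by -0.87 ± 0.11 (edgeR adjusted p = 1.67e-06). CMPK2, a mitochondrial nucleotide kinase (0.73 ± 0.41), the RNA-activated kinase EIF2AK2 (0.19 ± 0.13) and IFI30, a lysosomal reductase of antigen processing (-0.39 ± 0.18), did not pass. With the bird as a block all 3 passed the edgeR adjusted p, CMPK2 at 0.62 ± 0.20 (0.0156), EIF2AK2 at 0.19 ± 0.07 (0.0384) and IFI30 at -0.43 ± 0.10 (0.00235). Reads of IFI30 may include those of the overlapping MPV17L2. In the authors' second set of counts, with ENSABRG identifiers, IFI30 went the other way. There it was higher in the pituitary in every bird, at 7.78 to 37.8 CPM against 6.19 to 30.8 CPM in the hypothalamus. The direction for IFI30 thus depended on the gene annotation, and the reason was not tested. In that blocked fit 28 members passed the adjusted p alone against 24 without the block, and the same 9 were called. The share of all genes that passed in the blocked fit is not given here, so the 28 has nothing to be set against.

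Of the 8 PARP enzymes 5 passed the adjusted p as higher in the pituitary and none as lower. Of all genes 40.1% passed it as higher and 36.2% as lower. PARP12, raised by interferon in mammals, was 55.9 to 108 CPM in the pituitary (median 81.0) and 32.7 to 56.0 CPM in the hypothalamus (median 39.1), and differed by 1.00 ± 0.13 (edgeR adjusted p = 2.38e-06). PARP8 (0.99 ± 0.09), PARP9 (0.92 ± 0.15), PARP11 (0.54 ± 0.19) and PARP16 (0.52 ± 0.08) also passed the edgeR adjusted p. All 5 were higher in the pituitary in 8 of 8 birds and none reached a fold of 2 at full precision. PARP1, the DNA-damage enzyme (-0.11 ± 0.07), PARP3 (0.40 ± 0.26) and PARP4 of the vault particle (0.0001 ± 0.20) did not pass.

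**Figure D1:**
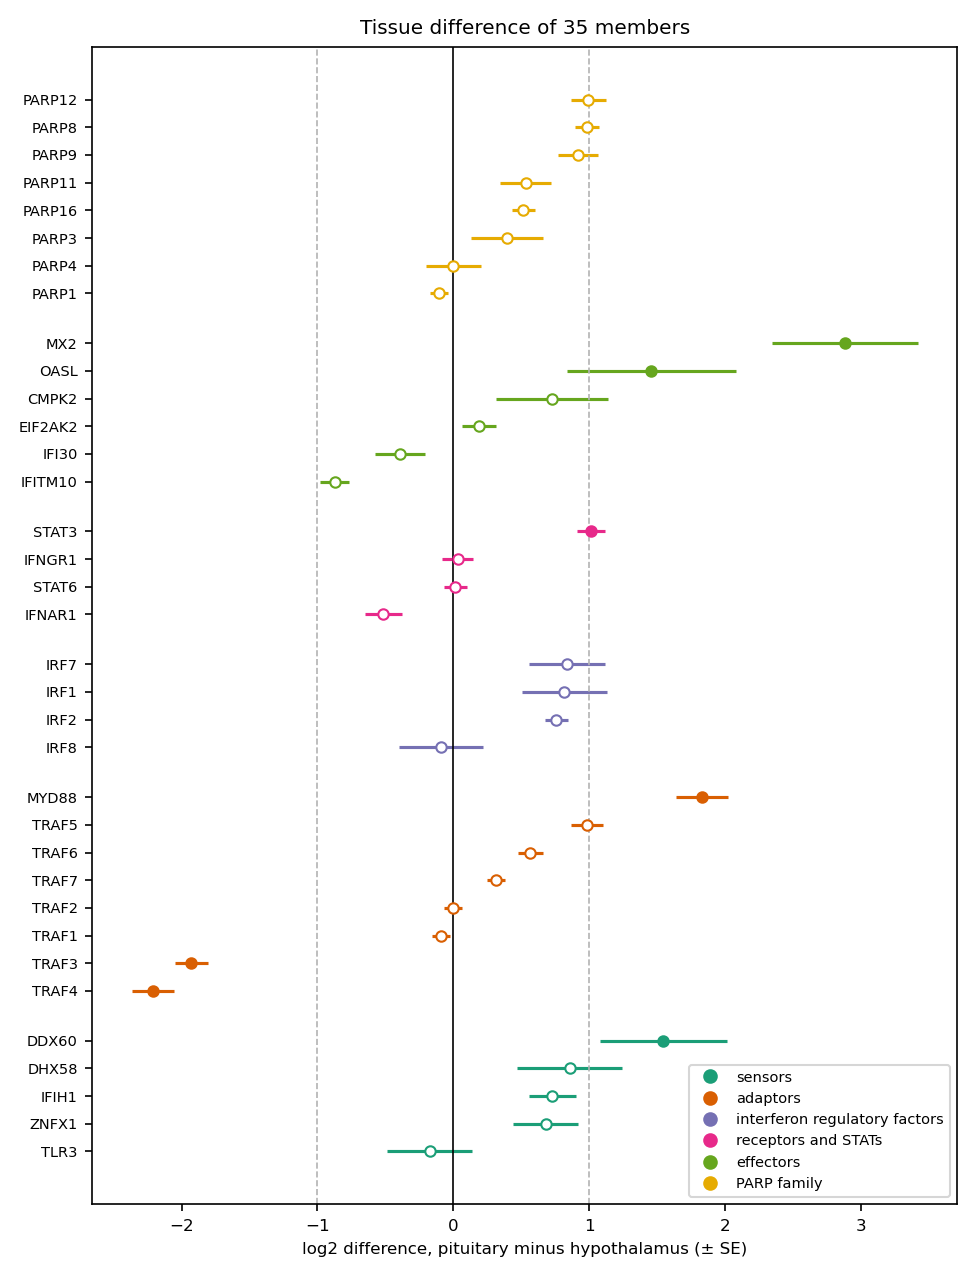
Log2 difference of 35 of the 37 members, pituitary minus hypothalamus (x axis, ± SE, 8 libraries per tissue), grouped by role. Filled points passed the adjusted p and the 2-fold minimum marked by dashed lines. MX2 at 2.88 lies farthest right of those plotted, TRAF4 at -2.21 and TRAF3 at -1.93 farthest left.

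Markers of other immune cells differed between the tissues beside these members. All 3 of the 9 listed lymphocyte markers that were measured passed as higher in the pituitary, CD3E by 2.62 ± 0.45, JCHAIN by 2.32 ± 0.96 and LCK by 1.18 ± 0.38 (edgeR adjusted p = 5.58e-05, 0.0375 and 0.0103). Their summed level was 20.8 to 454 CPM in the pituitary and 3.26 to 165 CPM in the hypothalamus. JCHAIN made up most of the highest sums, with 424 of 454 CPM and 151 of 165 CPM in bird 50, but not of the lowest, with 6.94 of 20.8 CPM in the pituitary of bird 54 and 1.43 of 3.26 CPM in the hypothalamus of bird 33. Of 13 listed microglia and macrophage markers 10 were measured, with TMEM119 called as higher in the pituitary (1.46 ± 0.33) and CSF1R as lower (-1.56 ± 0.33). That list summed to 77.2 to 290.1 CPM in the pituitary and 128 to 443 CPM in the hypothalamus. No measured marker of either list was at 0 in any library, and their part in the tissue differences was not tested.

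A small group of members differed widely between individual geese. In the pituitary OASL was 249.5, 55.0, 237 and 666 CPM in the low birds 33, 37, 38 and 40, and 199, 311, 98.2 and 16.9 CPM in the high birds 49, 50, 52 and 54. Bird 40 thus stood 39.4-fold above bird 54. In the hypothalamus of the same birds OASL was 70.8, 20.7, 58.5 and 146 CPM at low growth rate, and 56.0, 220.1, 42.4 and 17.8 CPM at high. Here bird 50 was highest and bird 54 again lowest, 12.4-fold apart.

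MX2 followed a similar order. Its pituitary levels were 83.4, 12.3, 65.4 and 183 CPM in birds 33, 37, 38 and 40 and 55.2, 52.6, 20.2 and 8.33 CPM in birds 49, 50, 52 and 54, which is 21.9-fold from highest to lowest. Hypothalamic MX2 was 8.96, 2.98, 6.16 and 14.6 CPM in the low birds and 6.23, 13.1, 4.40 and 2.25 CPM in the high birds, 6.48-fold apart. Birds 40 and 54 marked the ends in both tissues, with birds 37 and 52 next to the bottom.

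DDX60 in the pituitary was 25.2, 10.6, 99.3 and 69.6 CPM in birds 33, 37, 38 and 40 and 22.1, 60.6, 15.5 and 8.46 CPM in birds 49, 50, 52 and 54. The highest here was bird 38, 11.7-fold above bird 54. Its hypothalamic levels were 11.2, 8.67, 14.5 and 27.8 CPM at low and 12.6, 15.4, 4.91 and 7.96 CPM at high growth rate. DHX58 in the pituitary was 23.7, 11.6, 34.0 and 47.5 CPM in the low birds and 20.6, 36.7, 17.1 and 5.55 CPM in the high birds. In the hypothalamus DHX58 was 13.6, 7.35, 14.2 and 22.4 CPM in the low and 10.6, 24.3, 8.72 and 5.58 CPM in the high birds. These helicases therefore put birds 40, 38 and 50 high and birds 54, 37 and 52 low in the pituitary.

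CMPK2 was about as variable as the helicases, and other members were steadier. CMPK2 spanned 9.14-fold in the pituitary and 5.86-fold in the hypothalamus, and TLR3 4.77-fold and 2.76-fold. At the other end TRAF7 spanned 1.21-fold in the pituitary, PARP1 1.26-fold in both tissues, and TRAF2 1.30-fold and 1.27-fold. The biological coefficient of variation, edgeR's estimate of spread between birds within a group, was 0.765 for OASL and 0.696 for MX2 in the pituitary against a median of 0.193 over all genes tested there. In the hypothalamus it was 0.678 for OASL and 0.527 for MX2 against a median of 0.132.

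**Figure D2:**
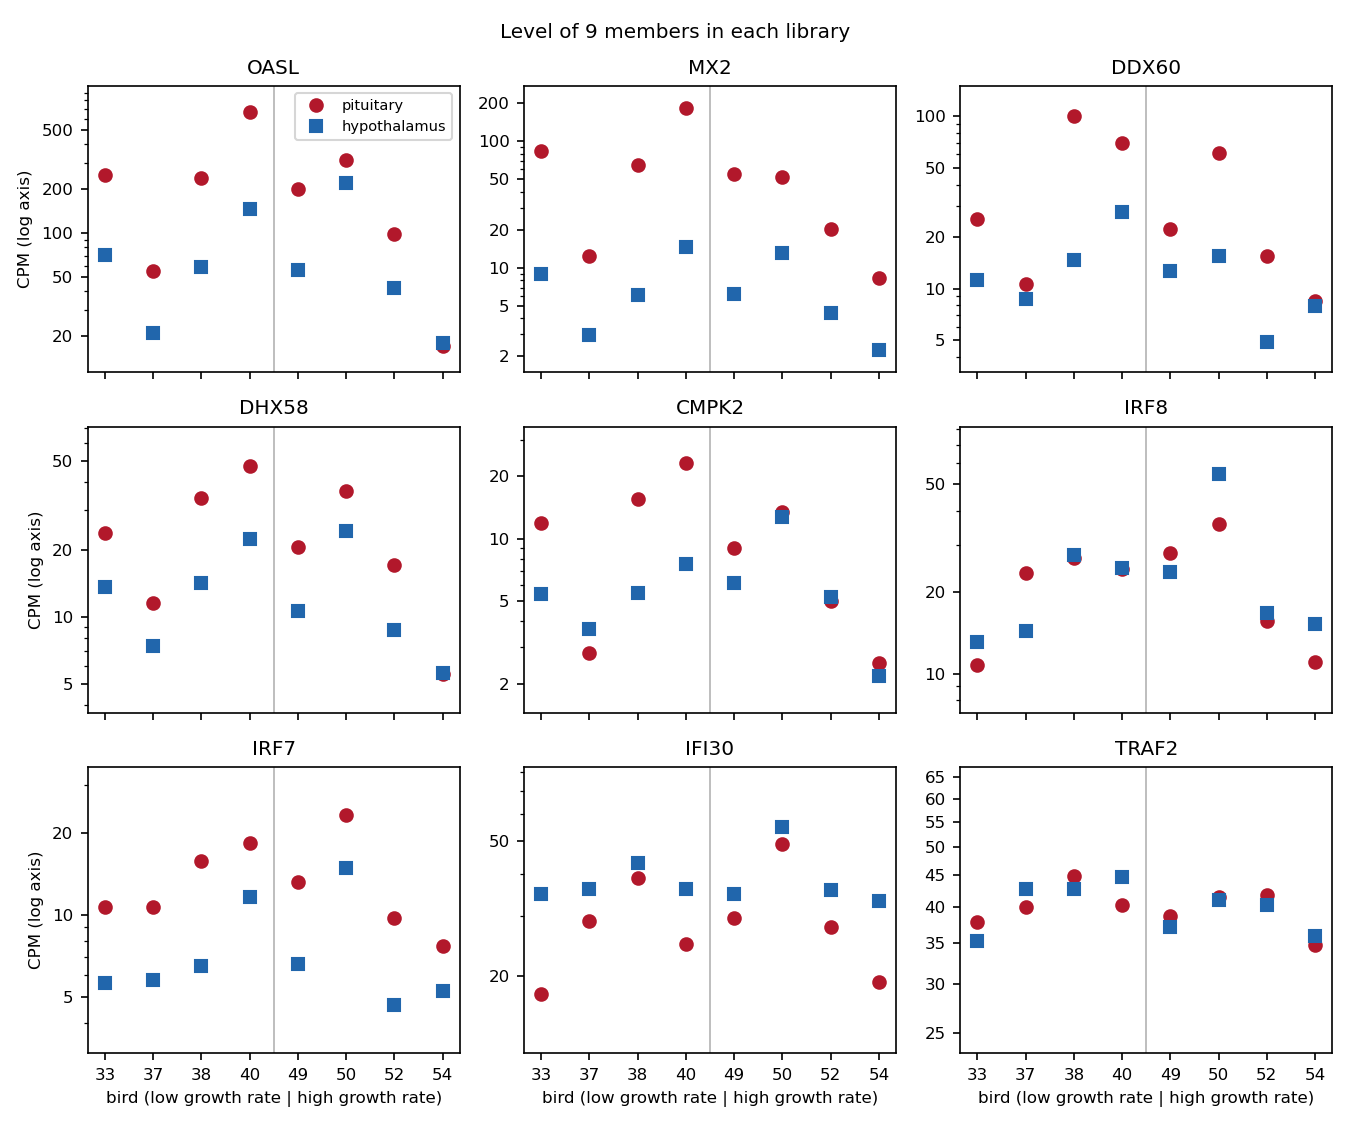
CPM on a log axis for 9 members in each of the 16 libraries, by bird, with low growth rate left and high growth rate right of the line. Circles are pituitary and squares hypothalamus. OASL runs from 16.9 to 666 CPM across pituitary libraries, while TRAF2 stays between 34.7 and 45.0 CPM.

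Counted over the members, bird 40 was the highest pituitary library for 13 of 37 and bird 54 the lowest for 16. In the hypothalamus bird 50 was highest for 16 of 37 and bird 54 lowest for 12. The same counts over all genes were not made, so these have nothing to be set against and may not be particular to the members. The pituitary library of bird 54 was the shallowest, at 8543585 counts, and the hypothalamus library of bird 50 the deepest, at 18068056. The hypothalamus library of bird 54 held 14606308 counts, the next deepest of its tissue. Lymphocyte markers in the hypothalamus summed to 165 CPM in bird 50 and 60.0 CPM in bird 40, and to 3.26 to 33 CPM in the other 6. In the pituitary they summed to 30.3, 133, 242 and 181 CPM in the low birds 33, 37, 38 and 40 and to 196, 454, 57.3 and 20.8 CPM in the high birds 49, 50, 52 and 54. Bird 54 was lowest for these sums and bird 33 next to lowest, and bird 49 lay above bird 40. Pituitary OASL and MX2 in bird 33 were 249.5 and 83.4 CPM. Microglia and macrophage markers in the hypothalamus summed to 128, 176, 236 and 219 CPM in the low birds and to 217, 443, 157 and 185 CPM in the high birds. In the pituitary they summed to 77.2, 156, 262 and 222 CPM and to 155, 290.1, 145 and 119 CPM. Bird 50 was highest for these markers in both tissues and bird 33 lowest, and the member IRF8 had the same highest and lowest birds. Bird 33 was the lowest library for 4 of 37 members in the pituitary and for 6 in the hypothalamus. The part of depth and of these cells in the levels was not tested.

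**Figure D3:**
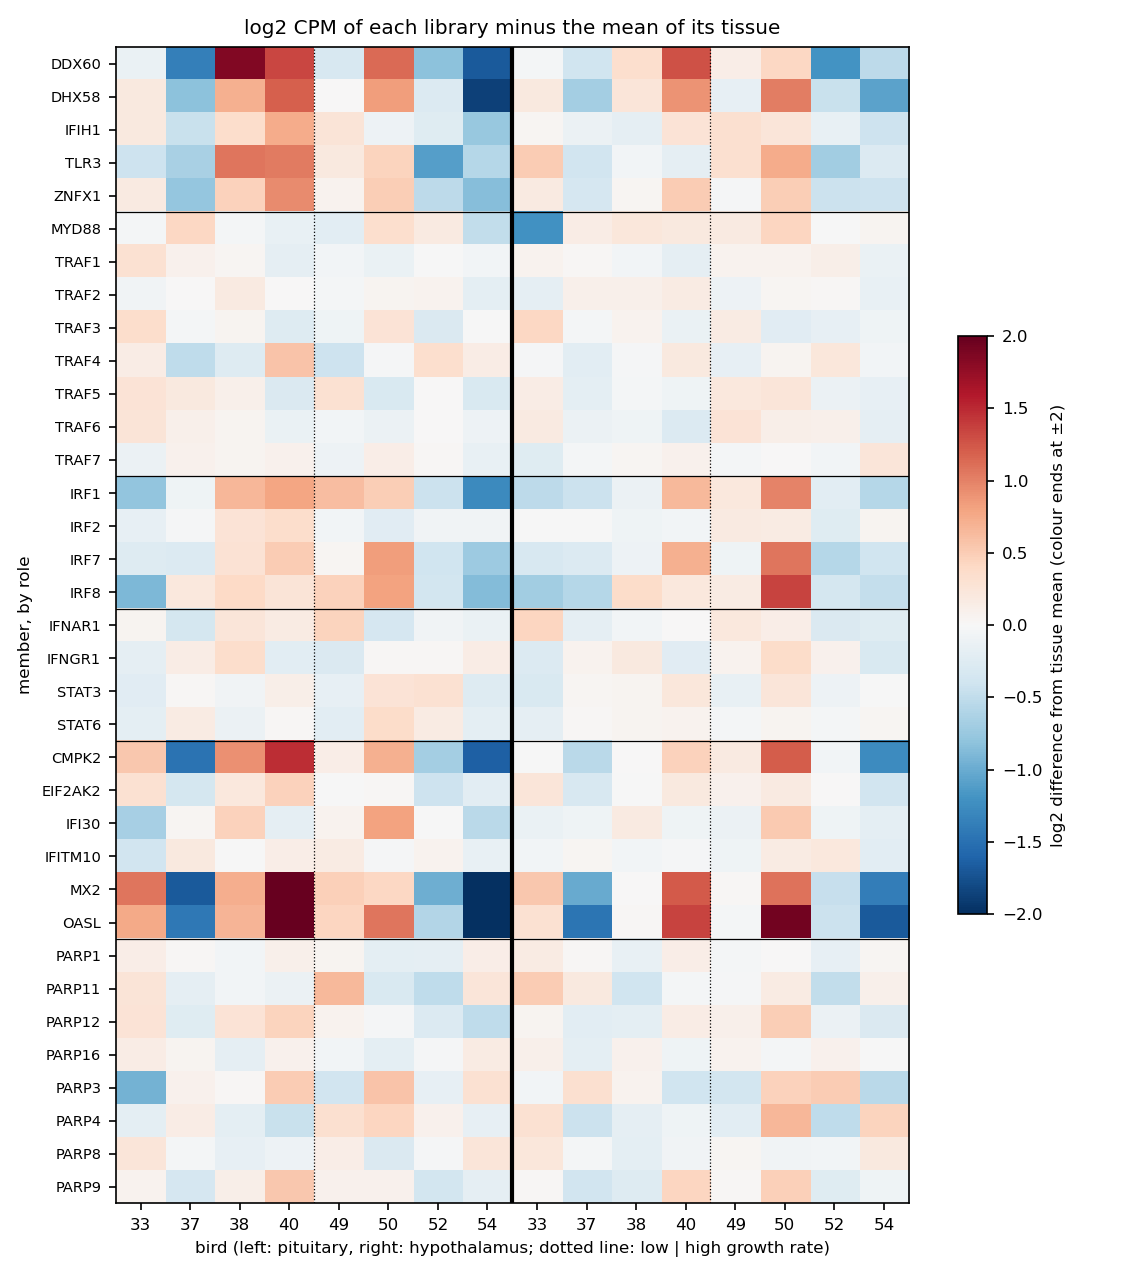
Log2 CPM of 35 of the 37 members (rows, by role) in each library (columns, by bird) minus the member's mean in that tissue, on a colour scale that ends at 2 in either direction. OASL, MX2, DDX60, DHX58 and CMPK2 carry the strongest colours, high in bird 40 and low in bird 54 in the pituitary, and high in birds 40 and 50 in the hypothalamus, where CMPK2 in bird 40 and DDX60 in bird 50 are only slightly raised.

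Both tissues came from the same 8 birds, so each member's levels could be set against each other across birds. The Pearson r between pituitary and hypothalamus was above 0 for 35 of 37 members, with a median of 0.69, while over all 14371 genes with varying values 75.5% were positive and the median r was 0.32. The 35 include PARP3, PARP4, TRAF7 and MYD88, whose r of 0.024 to 0.133 was close to 0. At an unadjusted exact permutation p under 0.05, 16 members (43.2%) were positively correlated against 12.0% of all genes. After adjustment over all genes 0 members passed by either coefficient, and 0.0% of all genes did. These values are descriptions of 8 birds, whose paired libraries share the animal.

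DHX58 had the highest r. Its Pearson r was 0.943 (exact permutation p = 0.000198, adjusted 0.139) and its Spearman rho 0.976 (exact permutation p = 0.000397, adjusted 0.204), and r was 0.922 without birds 40 and 54, the 2 farthest from the median. For IRF7, at 10.7, 10.6, 15.7 and 18.3 CPM in the low and 13.2, 23.2, 9.73 and 7.70 CPM in the high pituitaries, r was 0.910 (exact permutation p = 0.000521, adjusted 0.160). Its rho was 0.929 (exact permutation p = 0.00223, adjusted 0.245) and r without birds 40 and 50 was 0.783. IFI30 in the pituitary was 17.7, 28.9, 38.7 and 24.7 CPM at low and 29.6, 49.1, 27.8 and 19.2 CPM at high growth rate. Its r was 0.866 (exact permutation p = 0.00193, adjusted 0.198), rho 0.810 (exact permutation p = 0.0218, adjusted 0.358) and r without birds 33 and 50 was 0.873.

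The effectors MX2 and OASL, with the widest ranges, gave r of 0.917 and 0.890 (exact permutation p = 0.00193 and 0.00253, each adjusted to 0.198). Their rho was 0.833 and 0.976 (exact permutation p = 0.0154 and 0.000397, adjusted 0.334 and 0.204). Without birds 37 and 54, r was 0.763 for MX2 and 0.759 for OASL. For CMPK2 the r of 0.778 (exact permutation p = 0.0157, adjusted 0.299; rho 0.833, exact permutation p = 0.0154, adjusted 0.334) fell to 0.379 without birds 37 and 54. With values centred on the growth group its r was 0.839, and 0.773 without the same birds.

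Members without this pattern included MYD88, with r of 0.133 (exact permutation p = 0.742, adjusted 0.907) and rho of 0.048 (exact permutation p = 0.935, adjusted 0.981). The only members with a negative r were IRF2, at -0.373 (exact permutation p = 0.357, adjusted 0.703; rho -0.286, exact permutation p = 0.501, adjusted 0.799), and PARP16, at -0.189 (exact permutation p = 0.663, adjusted 0.875; rho 0.024, exact permutation p = 0.977, adjusted 0.993). With values centred on the growth group, 19 members reached an unadjusted permutation p under 0.05, against 14.9% of all genes. Centred values cannot be exchanged freely between groups, so that p is not exact and the larger count does not show a stronger pattern. Without birds 38 and 50, and without centring, 16 members reached an unadjusted exact permutation p under 0.05, against 9.47% of all genes.

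**Figure D4:**
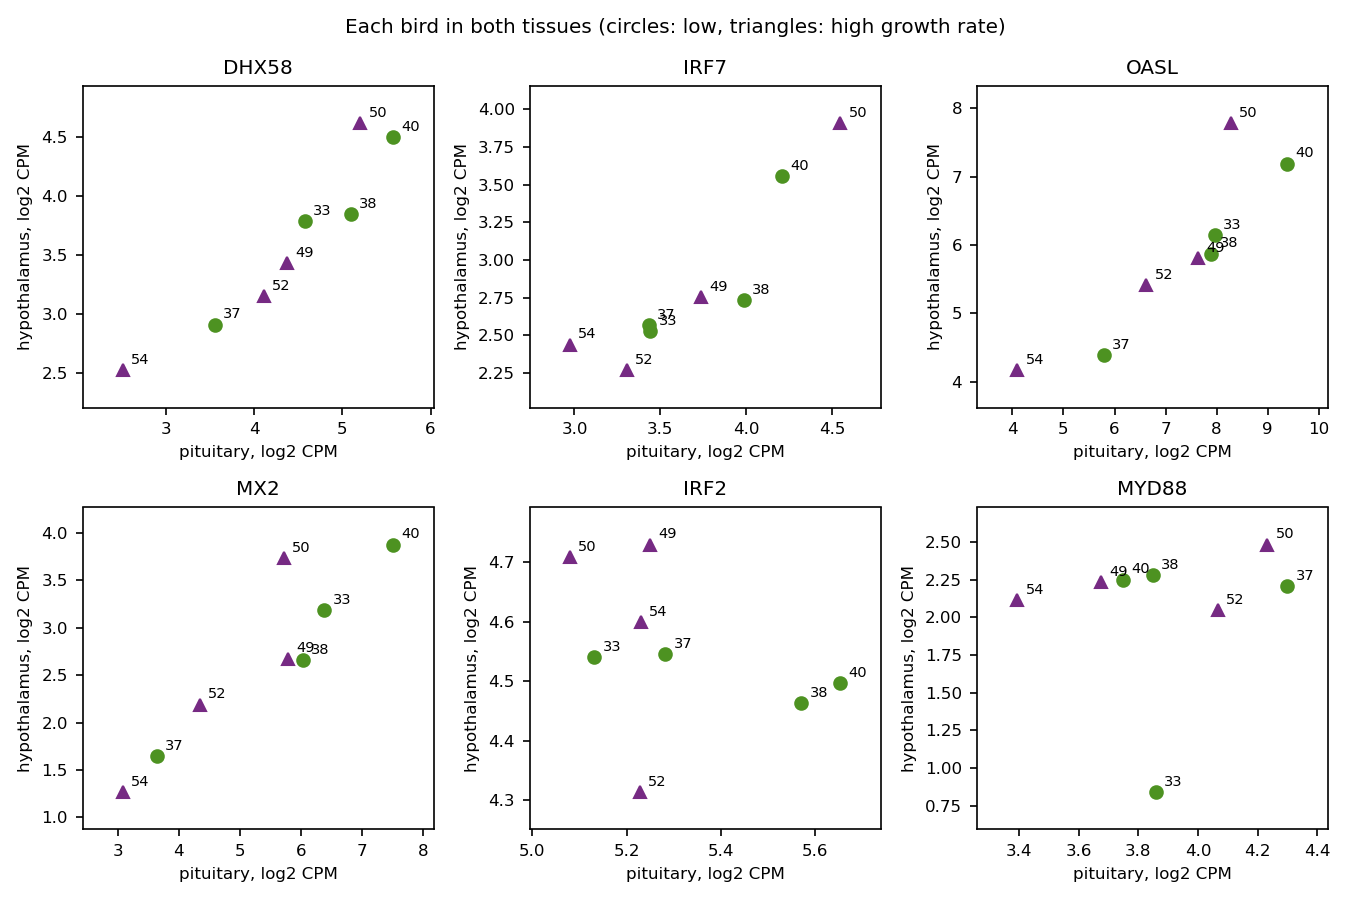
Hypothalamic against pituitary log2 CPM of 6 members, 1 point per bird (circles low, triangles high growth rate, bird numbers beside the points). DHX58 (r = 0.943), IRF7 (0.910) and OASL (0.890) rise from bird 54, 37 or 52 to birds 40 and 50. MX2 (0.917) rises from bird 54 to bird 40, with bird 50 high in the hypothalamus but in the middle of the pituitary range. IRF2 (-0.373) and MYD88 (0.133) show no such line.

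Growth rate was the study's own contrast, and in the pituitary 0 of 37 members passed it in edgeR, and 0% of all 13471 genes did. At an unadjusted p under 0.05 there were 0 members in edgeR and in limma voom and 1 in DESeq2, and 0 members passed adjustment in any of these tools. Of all 13471 genes 266, 300 and 320 had such an unadjusted p in edgeR, limma voom and DESeq2. Leaving out bird 37 gave 5 members at that unadjusted edgeR p, and 268 of all 13661 genes. Any other left-out bird gave 0 or 1 member, and 0 members passed adjustment in each case. The level ranges of low and high birds overlapped for all 37 members, while 1.41% of all genes did not overlap. Of the members 28 had a lower estimate at high growth rate, and 6560 of all 13471 genes did. The median log2 difference was -0.09 over the members against 0.004 over all genes. By role the estimates were below 0 for 5 of 5 sensors, 8 of 8 adaptors, 4 of 5 IRFs, 3 of 5 receptors and STATs, 4 of 6 effectors and 4 of 8 PARPs. Those of the adaptors were small, from -0.14 to -0.003. All members were measured in the same birds, so these signs are not independent and were not tested.

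PARP12 had the smallest unadjusted p of the members in this contrast. Its pituitary levels were 95.9, 67.0, 95.6 and 108 CPM in birds 33, 37, 38 and 40 and 83.4, 78.6, 65.4 and 55.9 CPM in birds 49, 50, 52 and 54. Low bird 37 falls among the high birds, and the log2 difference, high minus low, was -0.36 ± 0.17 (edgeR unadjusted p = 0.0574, adjusted p = 1). MX2, with the levels given above, differed by -1.32 ± 0.74 (edgeR unadjusted p = 0.106, adjusted p = 1). Single left-out birds moved it both ways, to -0.64 without bird 40 and to -1.69 without bird 37.

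EIF2AK2 in the pituitary was 37.3, 23.7, 34.8 and 41.5 CPM at low and 29.8, 30.7, 22.5 and 26.0 CPM at high growth rate, a difference of -0.33 ± 0.18 (edgeR unadjusted p = 0.107, adjusted p = 1). IRF2 was 34.9, 38.7, 47.4 and 50.1 CPM at low and 37.9, 33.7, 37.3 and 37.4 CPM at high, a difference of -0.22 ± 0.13. For IFIH1 the levels were 32.5, 20.7, 36.2 and 47.7 CPM and 34.0, 26.6, 24.1 and 16.8 CPM, a difference of -0.43 ± 0.27. Without bird 40 the difference was -0.22 for IFIH1 and -0.13 for IRF2, and without bird 54 it was -0.28 for IFIH1. Other left-out birds enlarged it, to -0.61 for IFIH1 without bird 37 and to -0.32 for IRF2 without bird 33. In each of these 3 at least 1 low bird lay below at least 1 high bird.

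The authors' deposited table for the pituitary called 51 of 12486 genes (0.408%) at an adjusted p under 0.05, and 3 of these were members. In the authors' deposited table, turned to high minus low, MX2 had a log2 value of -1.33 (adjusted p = 1.7e-07), OASL of -0.95 (adjusted p = 0.0012) and DDX60 of -0.94 (adjusted p = 0.00731). The fold sizes recomputed here were close to these, at -0.95 ± 0.82 for OASL and -0.93 ± 0.72 for DDX60, but the SEs are nearly as large as the differences (edgeR adjusted p = 1). Leaving out bird 40 brought OASL to -0.20 and leaving out bird 54 to -0.58, and leaving out bird 38 brought DDX60 to -0.40. Leaving out bird 50 moved them to -1.52 and -1.72 (edgeR adjusted p = 0.999). Without birds 38 and 50 together the differences were -1.64 for OASL, -1.73 for MX2 and -1.19 for DDX60, and 0 members passed. No header states the settings behind the authors' p-values, and the cause of the difference in calls was not tested.

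**Figure D5:**
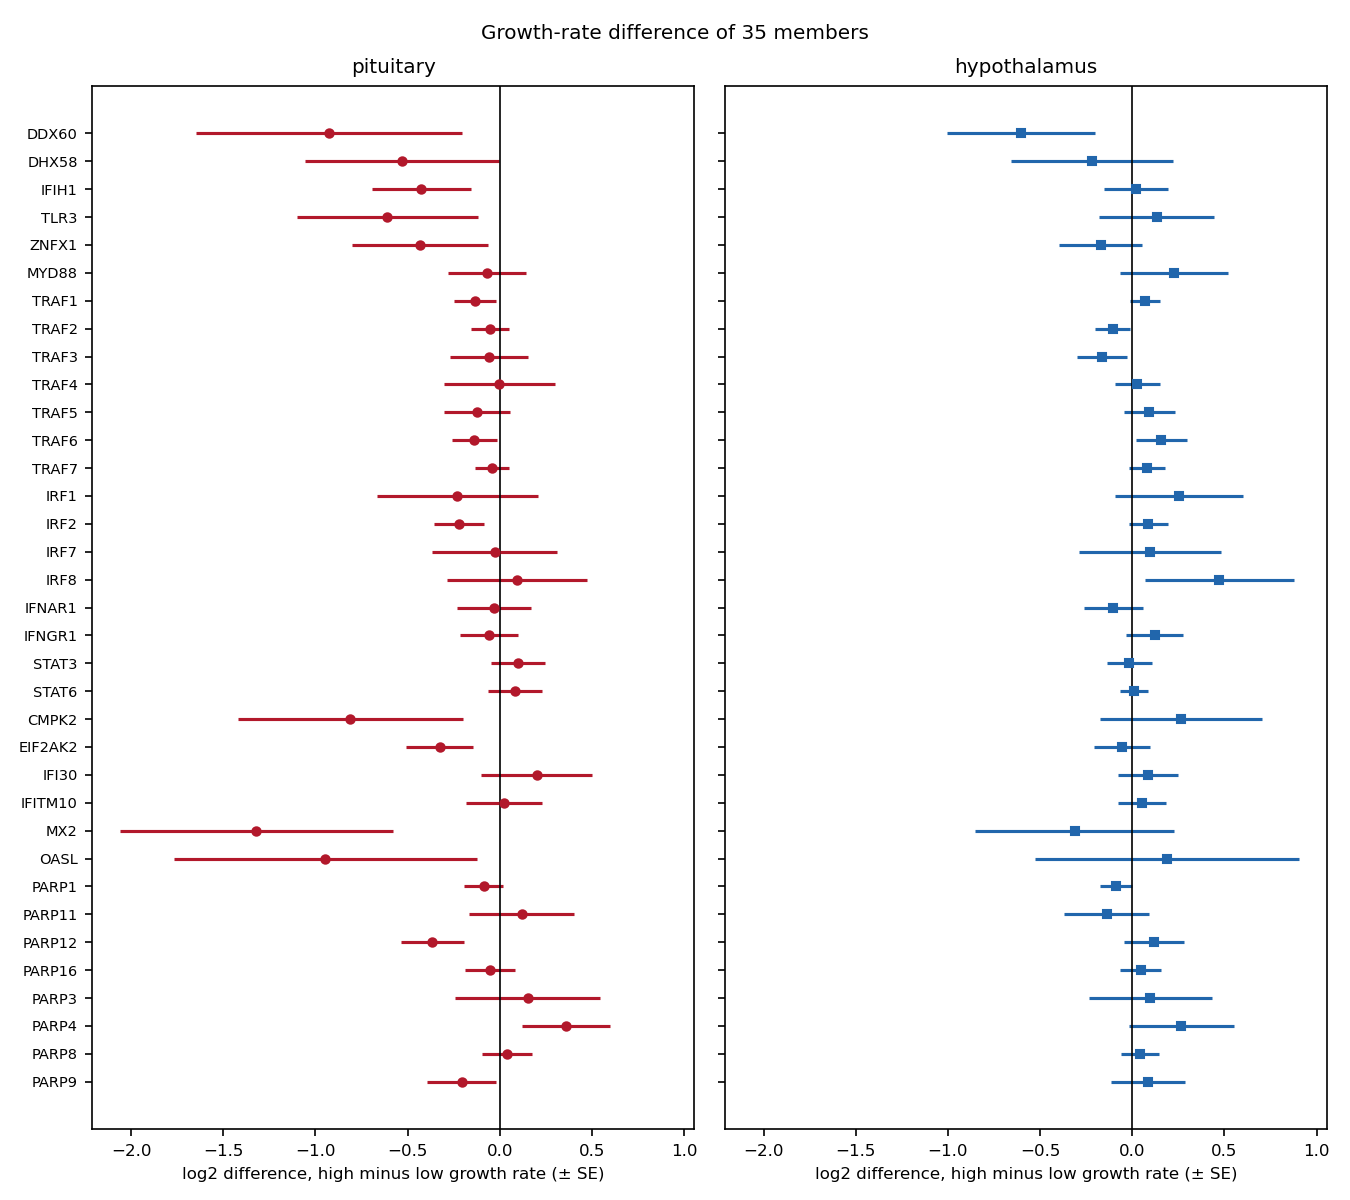
Log2 difference of 35 of the 37 members, high minus low growth rate (x axis, ± SE, 4 birds per group), in the pituitary and in the hypothalamus. None passed the adjusted p in either tissue. The largest estimates, MX2 at -1.32, OASL at -0.95 and DDX60 at -0.93 in the pituitary, have the widest error bars.

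In the hypothalamus 0 of 37 members passed for growth rate in edgeR, 0% of all 13695 genes did, and 0 members passed in DESeq2 or limma voom. At an unadjusted p under 0.05 there were 0 members by any of the 3 tools. Of all 13695 genes 456, 424 and 442 had such a p in edgeR, DESeq2 and limma voom. The ranges of low and high birds overlapped for all 37 members, where 1.91% of all genes did not overlap. Here 25 members had a higher and 12 a lower estimate at high growth rate, where 6663 and 7032 of all genes did. The median was 0.07 against -0.005 over all genes. DDX60 had the smallest unadjusted p among the members (edgeR log2 difference -0.60 ± 0.40, unadjusted p = 0.165, adjusted p = 0.998). Without bird 40 its difference was -0.15 and without bird 52 -0.38. Over all single left-out birds it ranged from -0.87 to -0.15.

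IRF8 in the hypothalamus was 13.1, 14.4, 27.5 and 24.7 CPM in the low birds and 23.8, 54.5, 16.8 and 15.3 CPM in the high birds. Bird 50 stood alone at the top, and the other 3 high birds lay within the low range. Its difference of 0.47 ± 0.41 (edgeR unadjusted p = 0.270, adjusted p = 0.998) turned to -0.10 without bird 50. That library also held the highest microglia and macrophage marker sum, 443 CPM against 128 to 236 CPM in the other 7 hypothalami, and the part of these cells was not tested. In the authors' deposited table for the hypothalamus, where 62 of 12486 genes (0.497%) were called, 0 members were, with IRF8 the closest at a log2 value of 0.47 (adjusted p = 0.0603).

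The adaptors named for the hypothalamus varied little. TRAF3 was 36.3, 26.3, 28.4 and 24.7 CPM in the low and 30.5, 23.2, 24.0 and 25.4 CPM in the high birds, a difference of -0.17 ± 0.14. TRAF6, which relays Toll-like receptor signals to NF-κB, was 15.5, 12.6, 12.9 and 11.3 CPM in the low and 16.6, 14.9, 14.8 and 12.1 CPM in the high birds, a difference of 0.16 ± 0.14. TRAF2 was 35.2, 42.8, 42.8 and 44.7 CPM in the low and 37.1, 41.0, 40.3 and 35.8 CPM in the high birds, a difference of -0.11 ± 0.09. Single birds moved these small differences: TRAF3 was -0.04 without bird 33 and -0.25 without bird 49. TRAF6 ranged from 0.10 without bird 49 or 40 to 0.24 without bird 54 and 0.25 without bird 33, and TRAF2 from -0.06 without bird 40 or 54 to -0.17 without bird 33. All 3 overlapped between groups and had an edgeR adjusted p of 0.998.

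Whether the growth difference itself differed between the tissues was tested as an interaction, and 0 of 37 members and 0% of all 14394 genes passed in edgeR. At an unadjusted p under 0.05 there were 0 members in edgeR, DESeq2 and limma voom. In edgeR 100 of all 14394 genes had such a p with an estimate above 0 and 106 with one below 0. PARP12 had the smallest p among the members, with the pituitary difference minus the hypothalamic one at -0.49 ± 0.25 (edgeR unadjusted p = 0.0706, adjusted p = 1). IRF2 (-0.31 ± 0.17) and TRAF6 (-0.30 ± 0.18) followed. With the bird as a block, PARP12 (-0.46 ± 0.14), OASL (-0.97 ± 0.35) and MX2 (-0.85 ± 0.36) had unadjusted edgeR p of 0.00785, 0.0207 and 0.0397, each with an adjusted p of 1. These were the 3 members under 0.05 in that fit. The share of all genes under 0.05 there is not given here, so this count has nothing to be set against.

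The surrounding pathway was read from lists of further genes. Of 37 listed genes of the signal relay between sensors and transcription 25 were measured, and 11 were called as higher in the pituitary and 1 as lower, where 14.9% and 19.5% of all genes were. Those called higher included the Toll-like receptor adaptor TIRAP (2.11 ± 0.14), the kinase IKBKE (1.62 ± 0.30), the NF-κB subunit NFKB1 (1.47 ± 0.07), the receptor kinase JAK2 (1.37 ± 0.09) and the DNA sensor CGAS (1.37 ± 0.16). The one called lower was SARM1, an adaptor known for axon degeneration (-2.67 ± 0.13). Of 29 further antiviral effectors and regulators 15 were measured and 4 were called, all higher in the pituitary: the exonuclease ISG20 (1.79 ± 0.18), the ubiquitin ligase TRIM25 (1.37 ± 0.24), DTX3L, the partner of PARP9 (1.15 ± 0.19), and HELZ2 (1.00 ± 0.23). These 4 of 15 are a smaller share than the 34.4% of all genes called in either direction and a larger one than the 14.9% called as higher in the pituitary. By adjusted p alone 17 relay genes were higher in the pituitary and 4 lower, the lower including SARM1 and TOLLIP (-0.99 ± 0.07). Of the antiviral list 11 were higher and 2 lower, UBA7 (-0.89 ± 0.15) and TDRD7 (-0.65 ± 0.10). Of all genes 40.1% were higher and 36.2% lower by that measure. The list medians were 0.62 and 0.39 against 0.06 over all genes. For growth rate 0 genes of either list passed in either tissue, with 0 relay genes and 1 effector in the pituitary and 1 gene of each list in the hypothalamus at an unadjusted edgeR p under 0.05.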

How the data were processed

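The authors deposited whole-number counts per gene for 16 libraries and, per the file headers, their own comparison of growth groups as log2 values, p-values and adjusted values. The submitters' processing notes name STAR and RSEM, with FastQC, DESeq2, Salmon and kallisto, but give no role or version. The header names no direction for the ratio. It was turned because all 51 and 62 genes the authors called had the opposite sign to the counts. The estimated counts of a de novo assembly were not used. Groups and birds came from the titles and labels, and low and high groups share no bird.

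From the counts with ENSACDG identifiers, genes were filtered with filterByExpr, scaled by TMM and tested with edgeR 4.0.16 (quasi-likelihood F test, Benjamini-Hochberg over all genes, threshold 0.05, R 4.3.3). Tissue calls also needed a fold of 2. Log2 CPM used a prior count of 2. Correlations used two-sided exact permutation over all pairings of 8 birds, whose smallest possible p is 2.48e-05. Their p-values were adjusted over all genes rather than over the members as first planned, because a list chosen with results known gives no independent adjustment. Birds pair the tissues: same-bird deviations correlated at 0.184 to 0.389 over all genes. For every bird this was above the highest correlation of its pituitary with another bird's hypothalamus, which ranged from 0.057 to 0.331. The margin was narrow in bird 38, at 0.184 against 0.165. The main edgeR fit of each contrast and the permutation p were tested on simulated data. The genes simulated for the fits shared a single spread, below that of members such as OASL and MX2. Libraries simulated for the fits were drawn independently, so the pairing of tissues by bird was not simulated. Alternative settings were not simulated.

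Members and gene lists were chosen with earlier results of these data known. Named genes were those with the 5 smallest p per growth contrast, the 3 smallest for the interaction, the 5 largest called tissue differences per direction, the 3 largest SDs per tissue and the 3 smallest correlation p. Results of 2 members are not reported here. Other members are given by role, and STAT3 and single values outside this rule were added after their values were seen. DESeq2 1.42.0, limma voom 3.58.1, other scalings and filters, counts with ENSABRG identifiers, blocks and left-out birds were alternatives. Counts limit precision to the totals given, and p-values for growth rate measure the spread between 4 birds per group. The main tissue and interaction fits took the 16 libraries as independent, although the same 8 birds gave both tissues. Among the fits only those with the bird as a block used that pairing. Permutation p-values rest on pairings of 8 birds.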

Additional observations from a re-analysis of the deposited data

Results flagged for a closer look

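Over the 17 members named by rule, 68 groups of 4 libraries were checked for 1 library far from the other 3, where chance alone marks about 1 group in 20, and 6 stood out. In the low hypothalami, IFI30 was 43.0 CPM in bird 38 against 34.8 to 36.1 CPM in the other 3. In the high hypothalami, IFI30 was 55.1 CPM in bird 50 against 33.1 to 35.8 CPM. IRF7 was 11.6 CPM in the low hypothalamus of bird 40 against 5.60 to 6.50 CPM. IRF2 was lowest in the high pituitary of bird 50, at 33.7 CPM against 37.3 to 37.9 CPM. MYD88 was 19.5 CPM in the low pituitary of bird 37 against 13.3 to 14.3 CPM. MYD88 was also lowest in the low hypothalamus of bird 33, at 1.63 CPM against 4.46 to 4.71 CPM, in the shallowest library of that tissue (9186728 counts). For none of the 6 was a reason tested.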

How the results depend on the processing

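Of the 9 members called between tissues, MX2, MYD88, TRAF3 and TRAF4 were called under every scaling, tool, filter, table and left-out bird tried with the 2-fold minimum. Leaving out single birds gave 7 to 12 called members, and leaving out birds 38 and 50 together, chosen after seeing the data, gave 11. The share of all genes called with these birds left out is not given here. There were 24 called members with no fold minimum and 3 with a 4-fold minimum, since these settings move the threshold itself. OASL was lost with limma voom (adjusted p = 0.0717) and without the filter (edgeR adjusted p = 0.0503). STAT3 fell below 2-fold with RLE size factors and DESeq2 (0.96 in both), without the filter (0.97) and without bird 33 or 52 (0.95 in both). With the bird as a replicate block 9 members were called between tissues and 0 for the interaction. With the replicant number as a replicate block 0 members were called for growth rate in either tissue; these numbers did not pair low with high birds (deviations correlated at -0.246 to 0.396). Growth rate and interaction calls were 0 under all other settings, leave-one-out included, and the hypothalamic IRF8 difference turned from 0.47 to -0.101 without bird 50 (range over left-out birds -0.101 to 0.682). Depth limits PARP3 most, at 11 to 38 reads per library, and CMPK2, MX2, MYD88, PARP4, PARP11, TLR3 and TRAF4 also had under 40 reads in their lowest library.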

Other observations

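The same name rule found 40 genes in the authors' counts with ENSABRG identifiers, adding the Toll-like receptors TLR2, TLR6 and TLR7. TLR6, which pairs with TLR2 to bind bacterial lipopeptides in mammals, was 8.64, 11.7, 9.19 and 12.6 CPM in the low pituitaries and 10.8, 9.58, 11.1 and 13.3 CPM in the high ones. In the hypothalami it was 3.20, 3.47, 3.31 and 3.31 CPM at low and 1.71, 3.46, 2.49 and 1.50 CPM at high growth rate, so the tissues do not overlap. TLR7, the endosomal receptor for single-stranded RNA, was 0.471, 1.24, 2.93 and 3.05 CPM in the low and 2.21, 2.16, 0.727 and 0.768 CPM in the high pituitaries. In the hypothalami TLR7 was 4.13, 2.23, 4.18 and 3.99 CPM at low and 4.91, 9.08, 2.83 and 2.02 CPM at high growth rate, with bird 50 highest. TLR2 was 28.2 to 67.7 CPM in the pituitary and 27.6 to 67.2 CPM in the hypothalamus, and its ranges overlap. In that table edgeR called TLR6 and TLR7 between the tissues besides the 9 members called in the main table.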
